A study of Mus musculus with 4 samples.

Results

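Nucleic acid sensors are the proteins with which a cell recognizes foreign or misplaced RNA and DNA. The 10 genes described here are the RIG-I-like RNA helicases Ddx58 (RIG-I), Ifih1 (MDA5) and Dhx58 (LGP2), the sensors Tlr3 and Zbp1, the adaptors Mavs and Tmem173 (STING), the kinase Tbk1, and the enzymes Trex1 and Adar, which limit the nucleic acids that reach the sensors. They were taken by gene name from the array's own annotation, as 10 of 31709 genes and unnamed probes on the array. They were chosen with their responses on these same arrays known, so the values below describe the members and carry no test.

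Gene expression was measured in p53+/+ (WT) and p53-/- mouse embryonic fibroblasts (MEFs), connective tissue cells grown from mouse embryos, each in the absence and presence of doxorubicin. Doxorubicin is a DNA-intercalating chemotherapy drug that poisons topoisomerase II and breaks DNA. RNA of each of these 4 conditions was labeled with Cy3 and hybridized to 1 one-color Agilent mouse array. The dose and duration of doxorubicin for the arrays, the strain and the number of embryos behind each culture are not given in the sources used here. With 1 array per condition, no difference below has a replicate check, and no p-value was calculated.

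In fibroblasts, RIG-I and MDA5 bind double-stranded RNA in the cytoplasm and signal through MAVS on mitochondria, while cytoplasmic DNA is signaled through cGAS and STING. Both routes reach TBK1, which phosphorylates IRF3 and thereby switches on interferon beta. Secreted interferon then acts through its receptor on the genes of many of the sensors themselves, so that RIG-I, MDA5, LGP2, ZBP1, TLR3 and ADAR are all known as interferon-stimulated genes.

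A level is the log2 intensity of the brightest probe of a gene minus that of the array's 75th percentile. The log2 ratio of 2 arrays is the difference of these levels, and a gene was called higher or lower at 2-fold, a log2 ratio of 1. A gene counted as measured where its probe was marked well above background on both arrays compared. Repeat spots of the same probe had an SD of 0.08 on the log2 scale, which corresponds to 0.11 for a ratio and 0.16 when 2 ratios are subtracted, and covers spots on an array but not separate cultures. Levels of different probes were not set against each other, since probes differ in brightness. The arrays marked 56.9% to 62.9% of probes as well above background, and the signal at the 75th percentile was 1819 to 2421. The Trp53 probe had signals of 1228 and 3442 in untreated and doxorubicin-treated WT MEFs and of 442 and 543 in p53-/- MEFs. Its log2 ratio of p53-/- over WT MEFs was −1.33 without and −3.08 with doxorubicin, and the position of the probe relative to the deletion was not analysed here. Cdkn1a and Mdm2, targets of p53, had log2 ratios of −4.73 and −1.80 between the untreated genotypes. The fibroblast label was checked against 12 fibroblast markers, all of which were well above background on all 4 arrays.

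Ddx58, Ifih1, Dhx58, Zbp1, Trex1 and Adar were at least 2-fold higher with doxorubicin in p53-/- MEFs, which is 6 of the 9 members measured there, beside 9.24% of 16953 measured genes. In WT MEFs Ifih1 and Trex1 reached 2-fold, 2 of the 8 members measured there, beside 11.0% of 17513 genes. Zbp1 was not among these 8, as its untreated WT spot was not well above background. Its bound in WT MEFs was at least 3.06-fold higher with doxorubicin. The dimmer second probes of Ddx58 (1.05) and Adar (1.02) also passed 2-fold in WT MEFs. No measured member was 2-fold lower with doxorubicin in either genotype, beside 10.4% of all genes that were lower in WT MEFs and 6.89% in p53-/- MEFs. Over the measured members the log2 ratio had a median of 1.39 in p53-/- and 0.65 in WT MEFs, and over all measured genes of 0.00 and 0.01. When arrays were scaled to their medians, the members' median was 0.38 in WT MEFs. In p53-/- MEFs these are 4 of the 5 sensors and both limiting enzymes, and Tlr3 had only a lower bound. The adaptors Mavs and Tmem173 and the kinase Tbk1 did not reach 2-fold in either genotype. The arrays cannot tell more RNA per cell from more cells that carry the RNA.

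**Figure D1:**
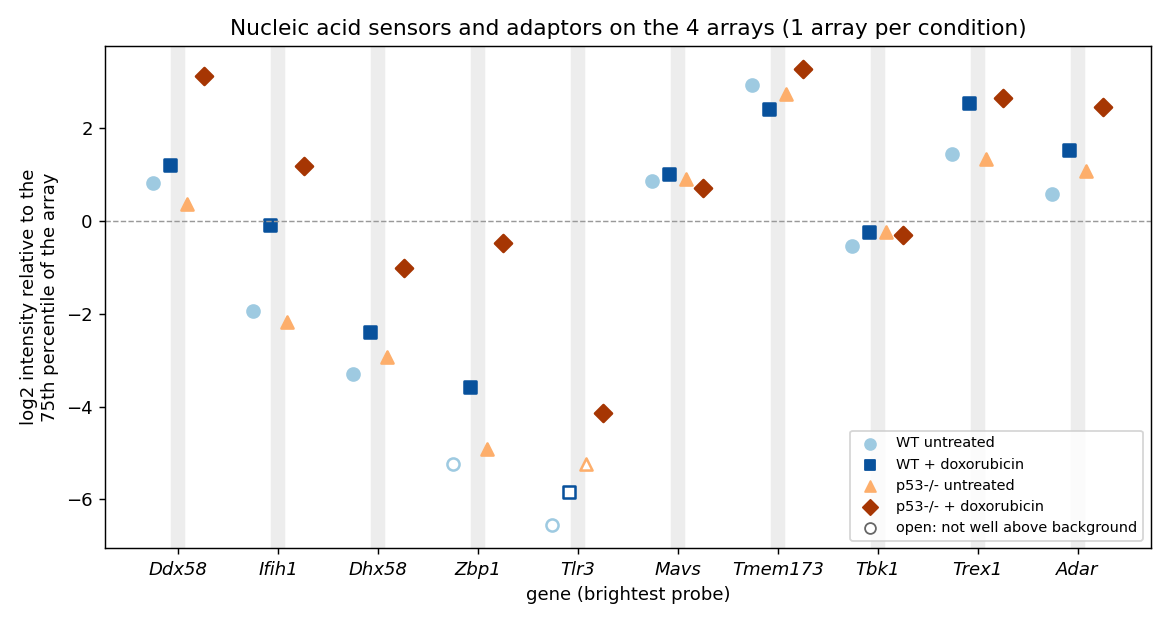
Levels of the 10 members on the 4 arrays, as the log2 intensity of the brightest probe relative to the 75th percentile of the array (y axis) for each gene (x axis). Filled symbols were well above background and open symbols were not, and each symbol is 1 array. For the 3 helicases, Zbp1, Trex1 and Adar the doxorubicin-treated p53-/- array is highest and the doxorubicin-treated WT array second. For Trex1 these levels lie close to each other (2.66 and 2.54). The 4 symbols of Mavs and of Tbk1 lie within 0.30 of each other.

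Ddx58 encodes RIG-I, which recognizes the phosphorylated ends of short double-stranded RNA. Its brighter probe lies at chr4:40151893-40151952 of mm9, on the minus strand. In WT MEFs its level was 0.82 without and 1.22 with doxorubicin, and in p53-/- MEFs 0.37 without and 3.13 with the drug. The treated p53-/- array stands apart from the other three, which lie within 1 of each other on the log2 scale. The log2 ratio with doxorubicin was 0.40 in WT MEFs and 2.76 (6.78-fold) in p53-/- MEFs, and 130 of the 16953 genes had a larger ratio in p53-/- MEFs. The difference between these ratios was 2.36, the largest among the 8 members measured on all 4 arrays. The second Ddx58 probe, at chr4:40151133-40151192, was dimmer, with signals of 174, 316, 214 and 1117 in the same order of arrays. Its log2 ratios were 1.05 in WT and 2.02 in p53-/- MEFs, so both probes were higher with doxorubicin in both genotypes and highest in treated p53-/- MEFs, but the difference between genotypes was 0.97 rather than 2.36. The WT ratio crosses 2-fold with the dimmer probe and not with the brighter one. In untreated p53-/- MEFs the dimmer probe's signal of 214 was below 2 of 153 negative control spots of that array.

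Ifih1 encodes MDA5, which binds long double-stranded RNA. The level of its brighter probe (chr2:62435507-62435566, minus strand) was −1.94 in untreated and −0.08 in treated WT MEFs, and −2.18 in untreated and 1.18 in treated p53-/- MEFs. Both treated arrays exceed both untreated arrays, and the treated p53-/- array is again highest. The log2 ratio with doxorubicin was 1.86 (3.62-fold) in WT and 3.36 (10.3-fold) in p53-/- MEFs, a difference of 1.51. In p53-/- MEFs 64 genes had a larger ratio. The second probe, at chr2:62434960-62435019, was not marked well above background on any array, and its signals were 16.9, 23.3, 15.9 and 107.5.

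Dhx58 encodes LGP2, which lacks the signaling domains of the other helicases and tunes their activity. Its single probe (chr11:100556271-100556330) had levels of −3.29, −2.38, −2.93 and −1.02 in untreated WT, treated WT, untreated p53-/- and treated p53-/- MEFs. The order is that of Ifih1 for the treated arrays, with the untreated ones below them. The log2 ratio was 0.91 in WT, just short of 2-fold, and 1.91 (3.76-fold) in p53-/- MEFs, and the difference of 1.003 sits on the 2-fold line. With normexp background correction this difference was 0.83. The signal of 247 in untreated p53-/- MEFs was above all but 1 of the 153 negative control spots.

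The start regions of the helicase genes were searched for the core of the interferon-stimulated response element, the DNA sequence bound by the factors that interferon activates, because these genes were high together. The RefSeq promoter table (GRCm38.p6, 250 bases before to 50 after each start) held 7 of the 10 members, and Dhx58, Zbp1 and Tmem173 were not among them. The motif was written as GAAA and a second GAAA separated by any 2 bases, on either strand, and occurred for 2 of 7 members, Ddx58 and Ifih1, and for 3.99% of 27025 genes in the table. The Ddx58 stretch is chr4:40239804-40239833 and the Ifih1 stretch chr2:62646206-62646235, both on the minus strand. The Ddx58 match covers bases 3 to 12 after the start in antisense, and the Ifih1 match bases 33 to 42 after the start in sense. For comparison the same search is shown for genes of the wider pathway named further on, of which 3 of 16 with a promoter in the table held the motif. These are Oas1a (chr5:120907526-120907555), Eif2ak2 (chr17:78882535-78882564) and the entry Mnda (chr1:173913064-173913093), all on the minus strand. All stretches are 30 bases, 5′ to 3′ in the sense of the gene, with the matched letters in capitals, and the 2 matches of Oas1a overlap.
Ddx58: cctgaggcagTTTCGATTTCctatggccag
Ifih1: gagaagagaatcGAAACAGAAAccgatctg
Oas1a: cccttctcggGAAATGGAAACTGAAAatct
Eif2ak2: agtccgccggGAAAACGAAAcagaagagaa
Mnda: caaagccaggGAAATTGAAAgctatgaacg

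The gamma-activated site TTCNNNGAA, bound by STAT dimers, occurred for 1 of 7 members, Adar, and for 9.55% of genes. Its match covers bases 23 to 31 after one of the 3 Adar starts in the table, within chr3:89730730-89730759 on the plus strand, and overlaps no match of the other motifs. It is shown with the matched letters in capitals. The p53 half-site, searched by its consensus, occurred for 0 of 7 members and for 9.55% of genes. A match describes letters in these windows only, and no binding was measured.
Adar: gggaagccttTTCAAGGAAacgaaagtgaa

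Zbp1 encodes a sensor of left-handed RNA and DNA helices that can start necroptosis. The signals of its brighter probe (chr2:173039307-173039366) were 54.9 in untreated WT, 152 in treated WT, 62.6 in untreated p53-/- and 1748 in treated p53-/- MEFs. The untreated WT spot was not well above background, and the untreated p53-/- spot, although marked so, was dimmer than 5 of the 153 negative control spots. Against that level the log2 ratio in p53-/- MEFs was 4.44 (21.7-fold), the largest of all members, and 19 genes had a larger one. It was 3.41 with normexp background correction. In WT MEFs the treated array was at least 3.06-fold higher than the untreated one, a bound set by the lowest signal marked well above background. With doxorubicin, where both signals were measured, Zbp1 was 8.62-fold higher in p53-/- than in WT MEFs (log2 ratio 3.11). The second probe (chr2:173032258-173032317) had signals of 16.0, 60.8, 14.8 and 343, of which those of the treated arrays were well above background. It was at least 1.22-fold higher with doxorubicin in WT and at least 4.61-fold higher in p53-/- MEFs, and its log2 ratio between the treated genotypes was 2.09.

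Tlr3 encodes the endosomal receptor for double-stranded RNA. Its probe (chr8:46481729-46481788) had signals of 22.0, 31.5 and 49.7 in untreated WT, treated WT and untreated p53-/- MEFs, none of them well above background, and 138 in treated p53-/- MEFs. Tlr3 was thus seen above background on that array alone. It was at least 1.86-fold higher there than in untreated p53-/- MEFs and at least 2.35-fold higher than in treated WT MEFs.

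**Figure D2:**
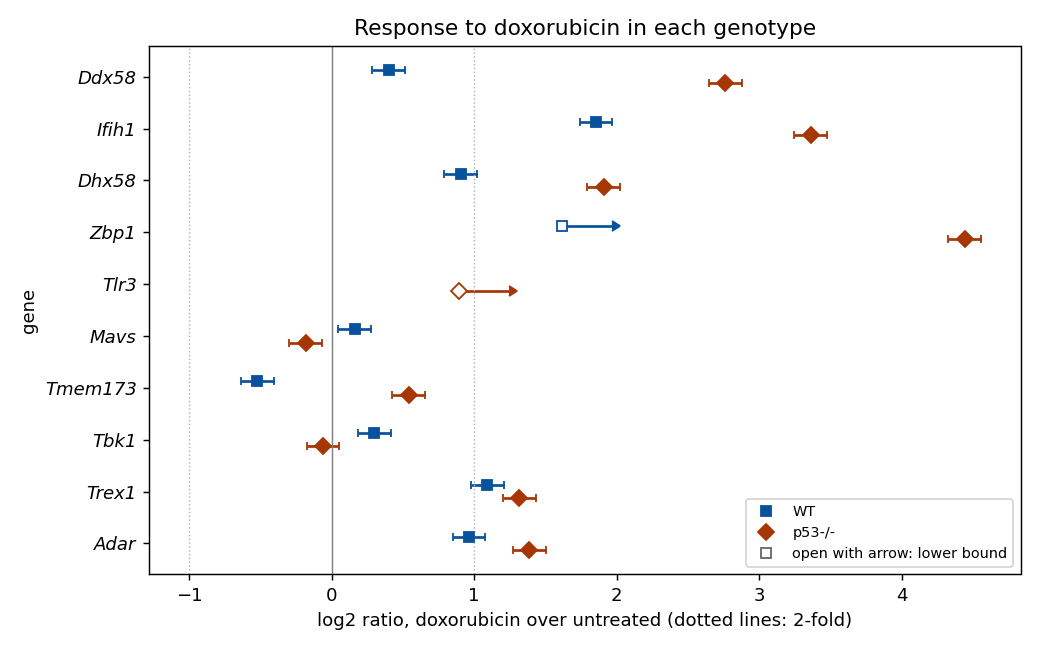
Log2 ratio of doxorubicin-treated over untreated MEFs (x axis) for each member (y axis), as squares for WT and diamonds for p53-/- MEFs. Bars are ± the SD expected of a ratio from repeat spots (0.11) and cover no culture error; open symbols with an arrow are lower bounds. Ddx58 (0.40 and 2.76) and Ifih1 (1.86 and 3.36) show the widest gaps between genotypes among genes measured in both, and Trex1 (1.09 and 1.32) a narrow one.

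Mavs encodes the mitochondrial adaptor that RIG-I and MDA5 share. The level of its probe (chr2:131073675-131073734, plus strand) was 0.85 in untreated WT, 1.02 in treated WT, 0.90 in untreated p53-/- and 0.72 in treated p53-/- MEFs. The 4 arrays differ by 0.30 at most, and the treated p53-/- array is the lowest. The log2 ratio was 0.16 in WT and −0.18 in p53-/- MEFs, and the WT value became −0.11 when arrays were scaled to their medians.

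Tbk1, the kinase on which both routes converge, was as flat. Its probe spans chr10:120988364-120988587, more than its own 60 bases, and so bridges an intron. Its levels were −0.53, −0.23, −0.23 and −0.29 in untreated WT, treated WT, untreated p53-/- and treated p53-/- MEFs. The last 3 are within the spread of repeat spots of each other and untreated WT is slightly lower. The log2 ratio was 0.30 in WT and −0.06 in p53-/- MEFs.

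Tmem173 encodes STING, the adaptor of the DNA route on the endoplasmic reticulum. The level of its probe (chr18:35893692-35893751) was 2.93 in untreated WT, 2.41 in treated WT, 2.74 in untreated p53-/- and 3.28 in treated p53-/- MEFs. The untreated cultures lie between the treated ones, with treated WT lowest and treated p53-/- highest. The log2 ratio was −0.52 in WT and 0.54 in p53-/- MEFs. Neither reached 2-fold, but their difference was 1.06, larger than the 0.16 expected from repeat spots. Tmem173 was the member whose WT and p53-/- ratios had opposite signs and were both larger than 0.5.

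Trex1 encodes the exonuclease that degrades cytoplasmic DNA and so restrains the DNA route. Its level (chr9:108960454-108960513) was 1.44 in untreated WT, 2.54 in treated WT, 1.34 in untreated p53-/- and 2.66 in treated p53-/- MEFs. The arrays pair by treatment, with both treated cultures above both untreated ones and little between genotypes. The log2 ratio was 1.09 (2.13-fold) in WT and 1.32 (2.49-fold) in p53-/- MEFs, and the difference was 0.22. The WT value just reached 2-fold, and was 0.82 when arrays were scaled to their medians.

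Adar encodes the editing enzyme that converts adenosine to inosine in double-stranded RNA and keeps a cell's own RNA from activating MDA5. Its brighter probe (chr3:89557158-89557217, plus strand) had levels of 0.57 in untreated WT, 1.54 in treated WT, 1.07 in untreated p53-/- and 2.46 in treated p53-/- MEFs. Both treated arrays again exceed both untreated ones. The log2 ratio was 0.96 in WT, just short of 2-fold, and 1.39 in p53-/- MEFs, a difference of 0.42. The second probe (chr3:89555266-89555325) gave 1.02 in WT and 2.14 in p53-/- MEFs, a difference of 1.12. As for Ddx58, the probes of Adar gave the same order of the treated arrays but not the same size of the difference between genotypes.

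The difference between the responses was at least 2-fold, larger in p53-/- MEFs, for Ddx58, Ifih1, Dhx58 and Tmem173, that is 4 of the 8 members measured on all 4 arrays beside 9.86% of the 16513 genes so measured. Which members passed depended on the probe, as the second probes gave 0.97 for Ddx58 and 1.12 for Adar. With normexp background correction, and with arrays scaled to their medians, Dhx58 fell below 2-fold. Under the filter on the brightest negative control it was not measured on all 4 arrays. No member had a response at least 2-fold larger in WT MEFs, as 8.37% of genes had. The difference was negative for Mavs (−0.34) and Tbk1 (−0.36). Its median was 0.71 over the members and −0.01 over all these genes, and over members above the brightest negative control it was 0.42. Of the 8 members, 6 had their highest level of the 4 on the treated p53-/- array, as had 28.2% of the genes.

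**Figure D3:**
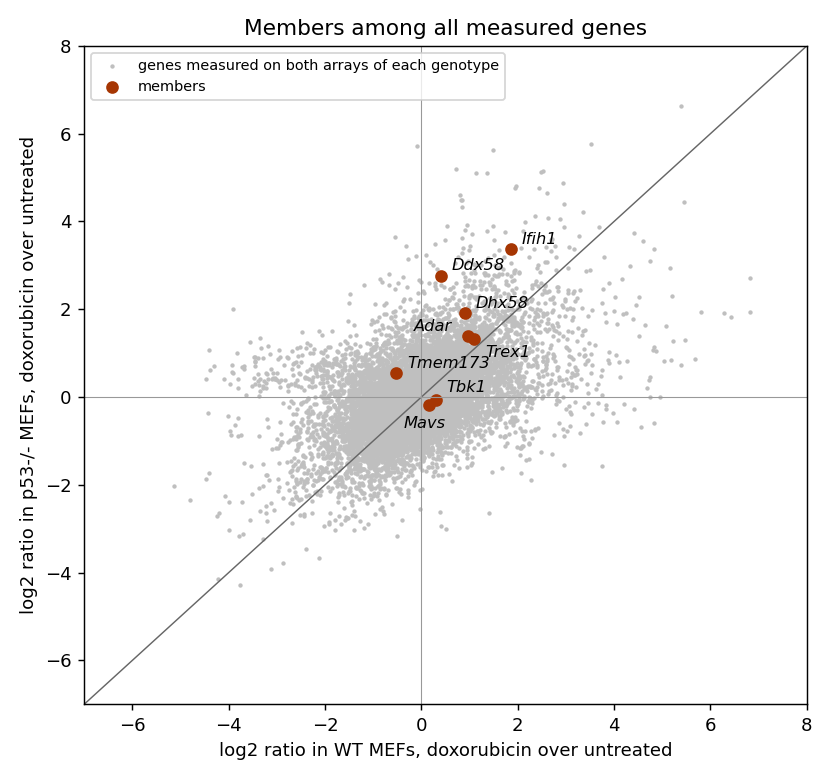
Log2 ratio of doxorubicin-treated over untreated MEFs in WT (x axis) against p53-/- MEFs (y axis) for the 16513 genes measured on all 4 arrays, in gray, with the 8 members so measured named and in color. The diagonal marks equal ratios. Ddx58, Ifih1 and Dhx58 lie above the diagonal by 1.003 to 2.36, and Mavs and Tbk1 lie near the origin.

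The genotypes were also compared at each treatment, with the same 4 arrays, so these ratios are not independent of those above. Without doxorubicin, 0 of 8 measured members were 2-fold higher or lower in p53-/- than in WT MEFs, beside 2.15% of 17286 genes that were higher and 2.61% that were lower. Their log2 ratios ranged from −0.45 for Ddx58 to 0.50 for Adar, with a median of −0.03. The sign of both ends depended on the probe, as the second probes gave 0.44 for Ddx58 and −0.09 for Adar. In the presence of doxorubicin, 4 of 9 measured members were at least 2-fold higher in p53-/- MEFs, beside 11.9% of 17892 genes, and 0 were lower, beside 10.3%. These were Zbp1 (3.11), Ddx58 (1.91), Dhx58 (1.36) and Ifih1 (1.26). Adar (0.92) and Tmem173 (0.87) lay just below 2-fold, Trex1 (0.12) and Tbk1 (−0.06) were close to equal, and Mavs was at −0.30. At 2-fold, the 3 helicases thus separated the genotypes in treated cultures and not in untreated ones.

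The rest of the pathway was taken from a list of 94 further genes, of which 93 were on the array. With doxorubicin, 20 of 78 measured genes were at least 2-fold higher and 3 lower in p53-/- MEFs, beside 9.24% and 6.89% of all genes, and the median was 0.37 on the log2 scale. In WT MEFs 14 of 79 were higher and 5 lower, beside 11.0% and 10.4%, and the median was 0.20. Without doxorubicin 2 of 79 were higher in p53-/- than in WT MEFs, beside 2.15%. Among treated cultures 23 of 84 were higher and 5 lower in p53-/- MEFs, beside 11.9% and 10.3%. The smaller lists below are read against the same shares, and counts such as 1 of 8 or 3 of 18 lie near them. In the named lists below, the first value is the log2 ratio in p53-/- MEFs and the WT value follows it.

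Among other RNA sensors, 5 of 12 were higher and 0 lower in p53-/- MEFs, against 2 and 0 of 12 in WT MEFs. The oligoadenylate synthetase Oas1a, which activates the ribonuclease RNase L, had the largest ratio among those measured on both p53-/- arrays (5.16, WT 2.53). After Oas1a came its relatives Oasl2 (4.75, WT 2.43) and Oasl1 (3.64, WT −0.55). Others of the family were looked up afterwards. Oas2 was not well above background in untreated MEFs and was at least 44.7-fold higher with doxorubicin in p53-/- and at least 8.04-fold in WT MEFs. Oas1b had 0.97 (WT 0.74), and Oas3 was not well above background on any array. Oas1g went the other way in WT MEFs, at least 3.53-fold lower with doxorubicin, and was not well above background in p53-/- MEFs. Eif2ak2, the kinase PKR that stops translation on double-stranded RNA, had a ratio of 2.01 (WT 0.90). Oasl1 had opposite directions in the genotypes, with signals of 427, 255, 378 and 6075 in untreated WT, treated WT, untreated p53-/- and treated p53-/- MEFs.

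Among other DNA sensors, 3 of 18 were higher and 1 lower in p53-/- MEFs, against 2 higher and 4 lower of 19 in WT MEFs. The p53-/- count leaves out 3 genes not well above background in untreated p53-/- MEFs, which were looked up afterwards. With doxorubicin, Ifi203 was at least 23.4-fold, Mndal at least 6.91-fold and Aim2 at least 5.79-fold higher there. In WT MEFs Ifi203 was at least 3.74-fold higher, Mndal had a log2 ratio of 1.45 and Aim2 was not well above background. Ifi204, an interferon-inducible DNA-binding protein, had a ratio of 4.61 (WT 0.79). The entry named Mnda on the array, which is Ifi211 in RefSeq and belongs to the same family, had 3.48 (WT 0.28). The Ifi200 genes are close relatives, and binding of other family members to these probes was not analysed here. Mb21d1, which encodes the DNA sensor cGAS, had signals of 1259 in untreated WT, 260 in treated WT, 1746 in untreated p53-/- and 4574 in treated p53-/- MEFs. It was lower with doxorubicin in WT (−2.08) and higher in p53-/- MEFs (1.02). Lrrfip1 was lower in both (−1.17, WT −0.89), although its WT value was 0.17 over all its probes.

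Among adaptors and signaling proteins, 5 of 24 were higher and 0 lower in p53-/- MEFs, and 6 and 0 of 24 in WT MEFs, so this list differed little in count. Mlkl and Ripk3, which carry out necroptosis downstream of ZBP1, had ratios of 2.03 (WT 2.26) and 1.39 (WT 0.57). Tank, a TBK1-binding scaffold, had 1.39 (WT 0.25, and −0.02 when scaled to the array medians), and the inflammatory protease Casp1 had 1.27 (WT −0.19). The transcription factor Irf7, singled out after its values were seen, had signals of 15.9 and 24.7 in untreated WT and p53-/- MEFs, neither well above background, and 319 and 2997 in the treated ones. Its treated arrays were at least 6.42-fold and at least 40.2-fold higher. Irf3, likewise looked up afterwards, had ratios of 0.16 in both genotypes. Other genes of this list, also singled out afterwards, had larger ratios in WT MEFs, namely the kinase Ikbke (0.24, WT 2.29) and the inflammasome adaptor Pycard (1.03, WT 3.90).

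Among modulators of signaling, 6 of 16 were higher and 1 lower in p53-/- MEFs, and 3 and 0 of 16 in WT MEFs. The ubiquitin-editing enzyme Tnfaip3 (A20) had 3.58 (WT 2.70). Nlrc5, a transactivator of MHC class I genes, had a larger ratio in WT MEFs (2.95, WT 5.16), from untreated signals of 65.2 and 70.5 that were close to background. Trim25, the ubiquitin ligase of RIG-I, had 2.11 (WT 0.73), and the antiviral zinc finger protein Zc3hav1 had 1.497 (WT −0.15). Among nucleases and related limiters, 1 of 8 was higher and 1 lower in each genotype. Samhd1, which degrades deoxynucleotides, had 1.11 (WT −0.66), and the editing enzyme Adarb1 was lower in both (−1.82, WT −1.89).

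**Figure D4:**
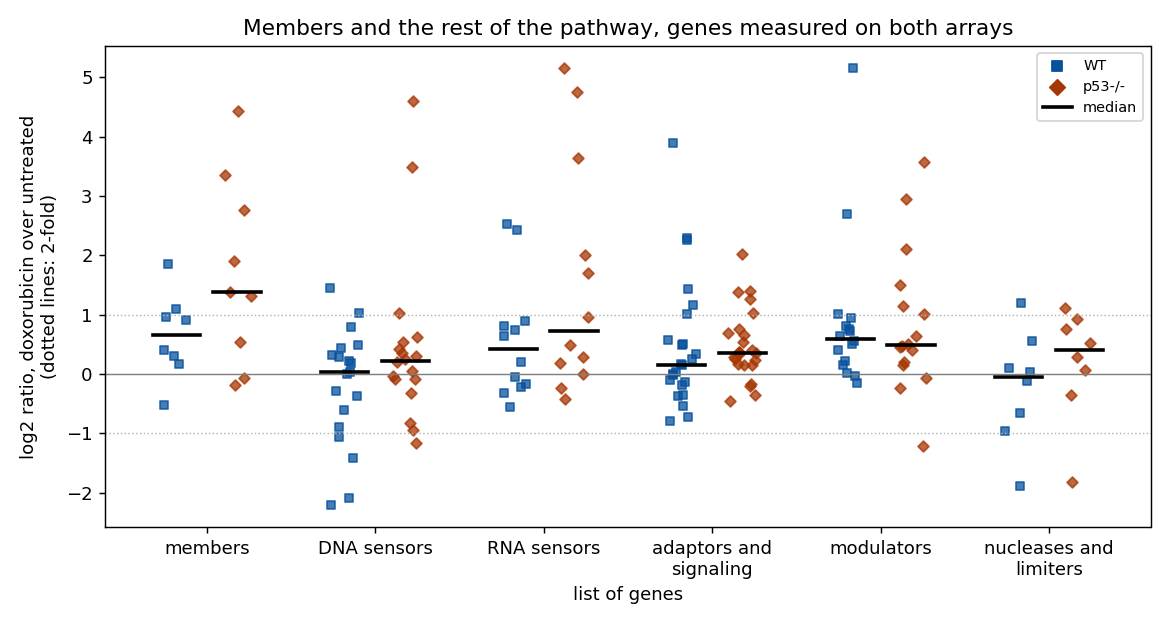
Log2 ratio of doxorubicin-treated over untreated MEFs (y axis) for the members and the 5 lists of further pathway genes (x axis), squares for WT and diamonds for p53-/- MEFs, each symbol a gene measured on both arrays of that genotype. Bars are medians; they are 0.65 and 1.39 for the members, and 0.42 and 0.73 for the other RNA sensors.

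Interferon beta itself (Ifnb1), the product of the pathway, had signals of 12.4, 23.9 and 12.0 in untreated WT, treated WT and untreated p53-/- MEFs, none of them well above background, and 337 in treated p53-/- MEFs. It was at least 4.51-fold higher there than in untreated p53-/- and at least 5.70-fold higher than in treated WT MEFs. Ifnar1, a chain of the receptor, had a log2 ratio of −0.69 in WT MEFs and of −0.65 in p53-/- MEFs. Ifnar2, the other chain, had −0.13 and 0.11, the second of which was −0.18 when scaled to the array medians. Ifnb1 thus followed the pattern of Tlr3, seen on a single array, and neither of these receptor chains reached 2-fold. In a list of 9 interferon ligands and receptors, 4 were well above background in untreated WT and 6 in treated WT MEFs. In p53-/- MEFs 5 were so without and 6 with doxorubicin. The pattern of Ifnb1 is therefore not that of all genes of this list, and other ligands are not described here.

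Immune cells express many of these genes strongly, so their markers were read beside the members. Of 14 leukocyte markers, 9 to 11 were marked well above background on an array. Their intensities, divided by the signal at the array's 75th percentile and not on the log2 scale, were summed, so bright probes weigh most. The sum was 18.7, 25.4, 20.8 and 17.2 in untreated WT, treated WT, untreated p53-/- and treated p53-/- MEFs. Most of this sum is a single probe, Itgam, with log2 levels of 3.66, 4.12, 3.91 and 3.55 in the same order of arrays. Of the leukocyte markers measured, 0 of 9 were 2-fold higher with doxorubicin in p53-/- MEFs, with log2 ratios from −0.84 to 0.63, and 1 of 10 in WT MEFs, Cd14. Cd68, above background on the treated WT array alone, was at least 4.25-fold higher there than in untreated WT MEFs. In p53-/- MEFs Lyz2 and Itgax were at least 1.52-fold and 1.16-fold lower with doxorubicin. The part of the leukocyte markers in the members' values was not tested. Ptprc (CD45), which defines leukocytes, was near background with signals of 65.3 to 104, and Cd79a was not above it on any array. Other leukocyte markers were well above background on all 4 arrays. Among them were Csf1r (2739 to 5530), Fcer1g (2131 to 3326), Tyrobp (925 to 1705) and Cd3e (701 to 998). Of 5 endothelial markers 2 or 3 were above background, among them Kdr with signals of 5269 to 7434, and not Cdh5 or Tie1. Of 4 epithelial markers 2 or 3 were above background, not Epcam, with intensities summed in the same way of 5.55, 9.53, 5.25 and 17.7. That sum was largest on the treated p53-/- array, where Krt18 had a log2 ratio of 1.91, and its part in the members' values was not tested. Of the 12 fibroblast markers, 5 were at least 2-fold lower with doxorubicin in WT and 3 in p53-/- MEFs, with median log2 ratios of −0.82 and −0.27, and their part was not tested either. Their intensities summed in the same way were 888, 708, 709 and 585.

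The genes most like the helicases were sought among the 16513 genes measured on all 4 arrays, by the Euclidean distance between their levels, centered on the gene's own mean, and the mean centered profile of Ddx58, Ifih1 and Dhx58. That profile was −0.88, 0.18, −0.99 and 1.69 in untreated WT, treated WT, untreated p53-/- and treated p53-/- MEFs. The 5 nearest were Gm13986 (distance 0.19), Rasgef1b (0.20), the peptide-loading factor Tapbp (0.25), the histamine receptor Hrh1 (0.25) and an unnamed probe (0.25). The log2 ratio of Tapbp was 0.87 for WT and 2.42 for p53-/- MEFs. The helicases themselves ranked 26 (Ddx58), 67 (Dhx58) and 141 (Ifih1). Among the other members, Adar ranked 234 and Trex1 535, while Tmem173, Tbk1 and Mavs ranked 3988, 5933 and 8447. By this measure, over 4 arrays, the limiting enzymes ranked nearer to the helicases than the adaptors and the kinase did. The distance was not scaled for the size of the changes, so genes that change little, such as Mavs and Tbk1, lie far off by construction.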

How the data were processed

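RNA of untreated and doxorubicin-treated MEFs of both genotypes was hybridized to Agilent mouse 4x44K v2 arrays. All 4 lay on 1 slide, 1 per condition, so the position on the slide and the condition cannot be told apart. Groups followed the sample labels. The authors labeled 200 ng of total RNA with Cy3. The deposited processed intensities were background-subtracted within each array by Feature Extraction 10.7.3.1 and not normalized between arrays, which is why they were scaled here. The authors' table of intensities for all arrays was equal to them at all 44397 features. The deposited mean and local background intensities served for normexp correction. The deposited flags (0 or 1) mark saturated, outlier and well-above-background spots. Positions of probes were copied from the files (mm9), and exon or UTR positions were not analysed here.

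Non-control spots without an outlier flag were averaged per probe on the log2 scale, and the 75th percentile over 39429 probes was subtracted. Probes were named from RefSeq (GRCm38.p6) by transcript accession (26055), symbol (3195) or synonym (930), and 9249 kept the name in the file. Of several probes, the one with the highest mean level stood for the gene. Where only 1 of 2 arrays was well above background, a bound was set by the lowest signal so marked on the other. The brightest of 153 negative control spots per array had signals of 77.5 to 250.1, so a weak call may not exceed background. The members, the gene lists and the rule for named genes (all members and probes, Trp53, Cdkn1a, Mdm2, interferon beta and its receptor, up to 4 largest 2-fold ratios per pathway list in p53-/- MEFs, the 5 nearest profiles) were chosen with earlier results of these data known. Alternative settings are listed below with their effect. Scaling, ratios, the 2-fold call and quantile normalization were tested on simulated data, with changes in bright probes only and every probe taken as measured. The background filter, the bounds, the choice and naming of probes and the motif search were not tested in this way. Python 3.11.15, numpy 2.4.6, pandas 2.3.3, matplotlib 3.10.9 and R 4.3.3 with limma 3.58.1 were used. The number of arrays limits the precision.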

Additional observations from a re-analysis of the deposited data

Results flagged for a closer look

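Among the members and the pathway genes named by rule, 7 had a response to doxorubicin that went in opposite directions in the 2 genotypes, by more than the spread of repeat spots in each. With 1 array per condition this difference was not tested. Values are the log2 ratio in p53-/- MEFs minus that in WT MEFs. Among the members the difference was −0.34 for Mavs (WT 0.16, p53-/- −0.18), whose WT ratio was −0.11 when arrays were scaled to their medians, and 1.06 for Tmem173 (WT −0.52, p53-/- 0.54). Among the pathway genes named by rule it was 3.11 for Mb21d1 (cGAS), 4.19 for Oasl1, 1.45 for Casp1, 1.65 for Zc3hav1 and 1.77 for Samhd1, each lower with doxorubicin in WT and higher in p53-/- MEFs. Other genes of the pathway list also had opposite signs, and Zdhhc1, looked up afterwards, ran the other way (WT 0.94, p53-/- −1.22).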

How the results depend on the processing

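The counts of members were recomputed with quantile normalization, scaling by array medians, normexp, dim probes kept, filters requiring all 4 arrays or the brightest negative control, averaged probes per gene, the authors' table, and limits of 1.5-fold or 3-fold. Members higher with doxorubicin in p53-/- MEFs numbered 4 to 7. In WT MEFs the count of 2 members became 1 with array medians, 4 at 1.5-fold and 1 at 3-fold. Larger responses in p53-/- MEFs numbered 1 rather than 4 at 3-fold, and members higher in treated p53-/- than in treated WT MEFs 2 rather than 4. Without a filter 1 member, Tlr3, was higher in untreated p53-/- than in WT MEFs, on spots not above background. The pathway count in WT MEFs was 9 with array medians, 24 at 1.5-fold and 7 at 3-fold rather than 14, and in p53-/- MEFs 11 at 3-fold rather than 20. Array medians moved the all-gene median log2 ratio to −0.27 (WT) and −0.30 (p53-/-). The shares of genes higher and lower then were 7.53% and 15.9% in WT, and 5.63% and 12.4% in p53-/- MEFs. Both sign changes among member values, out of 42 under that setting, were of Mavs. The mean of both probes gave Ddx58 a difference of 1.67 between genotypes. Except where the construction shows it, the cause was not tested. Slide as a block was not run, as there was 1 slide. No paired analysis was possible because each condition has 1 array. Dim signals limit Zbp1, Tlr3 and the second probe of Ifih1.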
